A study of Mus musculus with 9 samples.

Results

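The 9 genes described here make, carry, break down or sense the monoamines dopamine and noradrenaline: Th, Ddc and Dbh (synthesis), Slc6a3 and Slc18a2 (transport), Maoa and Maob (breakdown), and Drd1 and Drd2 (dopamine receptors). They were taken by symbol from a table of read counts, in which each of the 9 had its own row among 37816 genes. The counts come from the cerebellum of 9 mice on the C57BL/6 background, 3 in each of 3 groups, all harvested when 18 months old. Every mouse carried human ATXN3, mutated in spinocerebellar ataxia type 3, on a yeast artificial chromosome. The CAG tract of this transgene held 15 repeats in 15Q mice, the controls, and 84 repeats in 84Q and 84Q+IGF-1 mice, so that no group was free of the transgene. The 84Q+IGF-1 mice received 50 mg/kg IGF-1 (insulin-like growth factor 1) by intraperitoneal injection each week from 9 to 18 months of age. For the 15Q and 84Q mice the protocol gives injections of PBS, while the label of their treatment reads untreated.

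Tyrosine hydroxylase (Th) turns tyrosine into L-DOPA, aromatic L-amino acid decarboxylase (Ddc) turns L-DOPA into dopamine and 5-hydroxytryptophan into serotonin, and dopamine beta-hydroxylase (Dbh) turns dopamine into noradrenaline inside vesicles. The cell bodies of the neurons that release noradrenaline and serotonin in the cerebellum lie in the brain stem and send their fibers to the cerebellar cortex, and Th is also known to be transcribed in some Purkinje cells of the mouse. Monoamine oxidases sit on the outer mitochondrial membrane of many cell types, glia and vessel cells included.

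The promoters of Th, Slc18a2 and Dbh are shown first, because Th was the most abundant of the genes that define monoamine neurons and Slc18a2 and Dbh had the smallest p-values in the comparisons below. Each is the RefSeq window of 300 bases on GRCm38.p6, 250 before and 50 from the start site on, at chr7:142899946-142900245 (minus strand) for Th, chr19:59260628-59260927 (plus strand) for Slc18a2 and chr2:27165257-27165556 (plus strand) for Dbh, written 5′ to 3′ along the gene. Capitals mark the cyclic AMP response element TGACGTCA and the GC box GGGCGG on either strand, and a TATA box TATAAA was searched in the same way.
Th: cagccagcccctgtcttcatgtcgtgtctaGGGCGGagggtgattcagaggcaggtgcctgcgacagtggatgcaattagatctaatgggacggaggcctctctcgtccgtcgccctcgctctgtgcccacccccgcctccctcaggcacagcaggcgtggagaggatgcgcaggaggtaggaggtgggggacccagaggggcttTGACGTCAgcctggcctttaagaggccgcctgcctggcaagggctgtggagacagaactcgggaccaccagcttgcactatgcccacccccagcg
Slc18a2: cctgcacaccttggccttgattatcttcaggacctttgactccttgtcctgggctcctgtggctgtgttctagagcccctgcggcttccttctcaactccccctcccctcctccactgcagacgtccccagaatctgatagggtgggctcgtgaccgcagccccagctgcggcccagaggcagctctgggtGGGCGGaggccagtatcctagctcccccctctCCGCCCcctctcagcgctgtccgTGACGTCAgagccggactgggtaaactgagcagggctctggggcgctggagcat
Dbh: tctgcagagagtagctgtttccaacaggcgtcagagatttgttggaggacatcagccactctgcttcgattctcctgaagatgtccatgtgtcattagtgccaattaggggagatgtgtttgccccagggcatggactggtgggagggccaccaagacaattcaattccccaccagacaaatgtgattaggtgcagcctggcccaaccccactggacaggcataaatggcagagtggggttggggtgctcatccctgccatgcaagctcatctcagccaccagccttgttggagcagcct
The cyclic AMP response element began at base 206 of the window of Th and at base 247 of that of Slc18a2, and 1.79% of the 32851 mouse promoters of this length held it. The window of Th held 1 GC box and that of Slc18a2 held 2, a motif present in 35.7% of all promoters. The Dbh window contained none of these letters, and the TATA box, found in 13.6% of all promoters, was in none of these 3 windows. RefSeq windows matched 8 of the 9 genes, all but Maob, and the response element was in none of those of Ddc, Slc6a3, Maoa, Drd1 and Drd2.

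The counts summed to between 17482654 and 58269196 per library, and a floor of 3 counts stood between 0.0513 and 0.171 CPM (counts per 1e+06 counts, with library totals scaled by TMM). Summed markers of Purkinje cells lay between 7036 and 7920 CPM and those of granule cells between 6031 and 6943 CPM, so the libraries held cerebellar RNA as labelled. RNA of choroid plexus, the tissue that makes cerebrospinal fluid, stood apart in 3 libraries, where library 84Q 2 had 1088 CPM of its summed markers, 15Q 1 had 534 CPM and 15Q 3 had 524 CPM. The other 6 had between 30.2 and 72.6 CPM. Summed markers of intestine lay between 26.4 and 41.9 CPM in the 15Q libraries and between 5.04 and 6.51 CPM in the others. Those of liver lay between 6.54 and 15.4 CPM in 15Q and between 0.514 and 1.995 CPM elsewhere. Markers of the hindbrain outside the cerebellum (8 Hox genes, Chat, Slc18a3, Prph and Isl1) were low, at a sum between 0.570 and 4.18 CPM.

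Levels of different genes are compared only per length, in TPM (counts per base of exon, scaled to the same total in each library). The breakdown enzymes came first, Maoa with a mean of 50.7 TPM (41.8 to 55.7 over the 9 libraries) and Maob with 37.6 TPM (33.0 to 43.5), and Th followed at 17.0 TPM (10.5 to 26.5). Ddc had 4.80 TPM (3.92 to 5.57) and Slc18a2 had 3.24 TPM (2.66 to 3.88). At the low end Drd2 had 1.65 TPM (1.11 to 2.78), Dbh 0.752 TPM (0 to 3.49), Drd1 0.295 TPM (0.0416 to 0.441) and Slc6a3 0.0746 TPM (0 to 0.315). Neighbors in this order overlapped in their ranges except at 3 steps, those from Maob to Th, from Th to Ddc and from Ddc to Slc18a2. With the length of the longest transcript in place of the union of exons, the order was the same, but Ddc rose to 8.43 TPM and Maoa fell to 40.3 TPM.

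**Figure D1:**
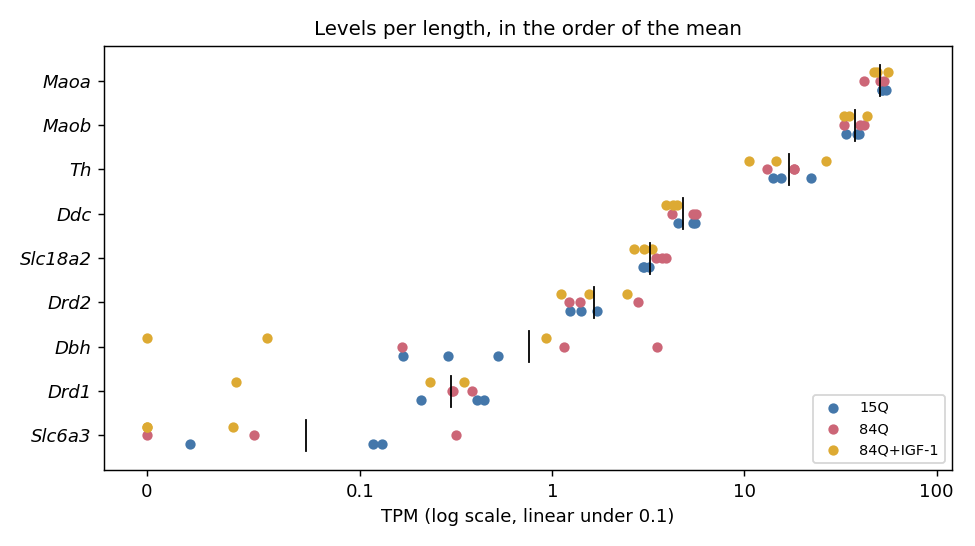
Level of each gene in TPM in each of the 9 libraries (points, colored by group) with the mean over the libraries (black line), on a log axis that is linear under 0.1. Maoa, Maob and Th stand above 10 TPM in every library, while Dbh, Drd1 and Slc6a3 reach down to or near 0.

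No gene of the 9 was called differentially expressed in any of the 3 comparisons. Calls were made in the quasi-likelihood test of edgeR over 19353 genes, at a fold change of 1.5 or more in either direction with an adjusted p below 0.1, and 7 of the 9 genes had enough counts to be tested, all but Slc6a3 and Drd1. In 84Q against 15Q, 0 of 7 genes were called, where the share over all tested genes was 2.14%, in 84Q+IGF-1 against 15Q 0 of 7, with 2.25% over all genes, and in 84Q+IGF-1 against 84Q 0 of 7, with 0% over all genes. DESeq2 also called 0 of the 9 in each comparison, where it called 1.38%, 1.56% and 0.0159% of its 37794 genes with a p in the same order, and it gave no adjusted p to 1 of the 9 in each comparison with 15Q. An unadjusted p under 0.05 in DESeq2 was found for 0 of the 9, beside 10.2%, 9.6% and 2.29% of all genes. In edgeR an unadjusted p under 0.05 was found for 2 of 7 genes in 84Q against 15Q (19.4% of all tested genes), for 0 of 7 in 84Q+IGF-1 against 15Q (17.7%) and for 2 of 7 in 84Q+IGF-1 against 84Q (4.68%). In both comparisons with 2, these were Dbh and Slc18a2, whose mean levels were highest in the 84Q group that both comparisons share.

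Groups without overlap were as few. In 84Q against 15Q the libraries of the 2 groups did not overlap for 1 of 7 genes (Slc18a2), which was the case for 25.4% of all tested genes. The corresponding numbers were 1 of 7 (Ddc) against 24.7% in 84Q+IGF-1 against 15Q and 1 of 7 (Slc18a2) against 8.46% in 84Q+IGF-1 against 84Q. The median log2 fold change of the 7 genes was 0.089 in 84Q against 15Q, 0.024 in 84Q+IGF-1 against 15Q and -0.13 in 84Q+IGF-1 against 84Q, and the medians over all tested genes lay between -0.0051 and -0.0019. P-values here measure the spread between the mice of a group, and in bulk tissue fewer cells of a type and less RNA per cell cannot be told apart.

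**Figure D2:**
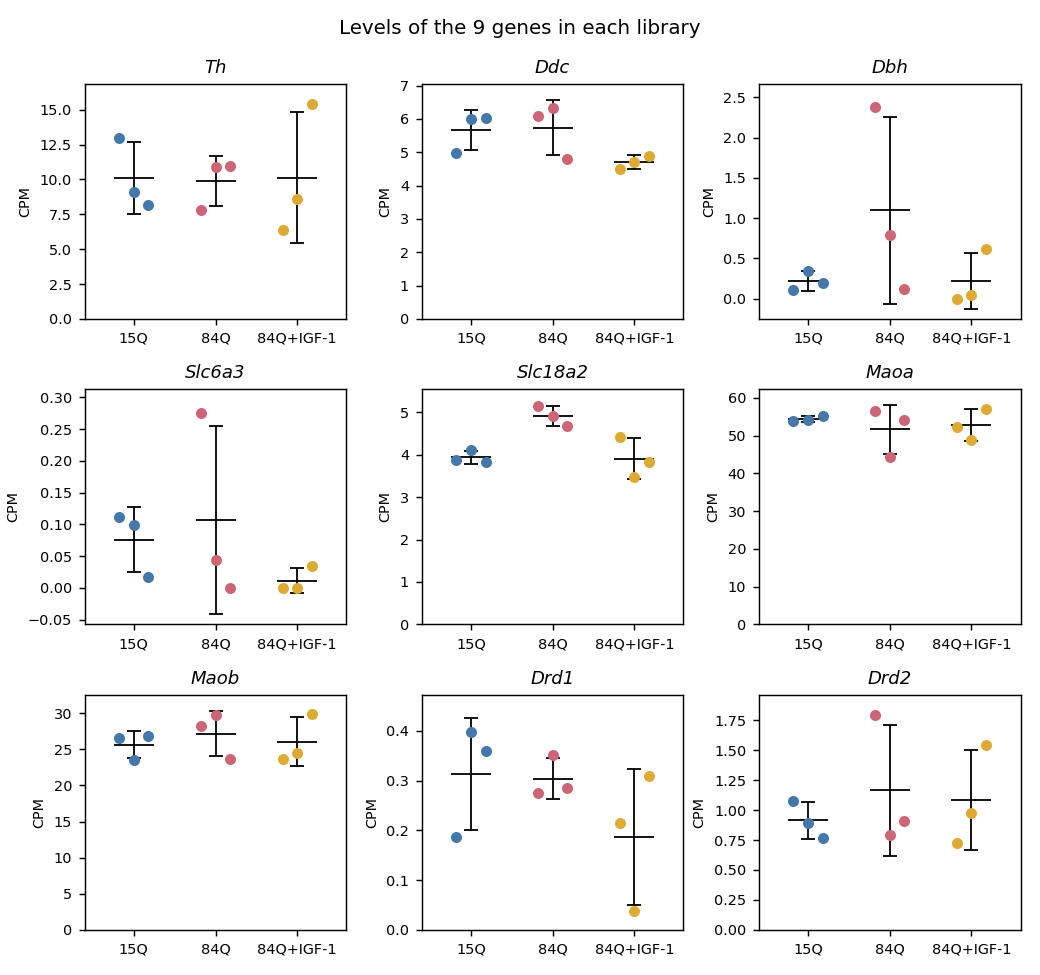
Level of each of the 9 genes in CPM, on axes of their own, with points for the 3 libraries of each group (replicates 1 to 3 from left to right), the mean (horizontal line) and the SD (bar). The groups overlap for every gene except Slc18a2, where the 84Q libraries lie above the others, and Ddc, where the 84Q+IGF-1 libraries lie below those of 15Q.

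Th (ENSMUSG00000000214.11, chromosome 7, 142892752 to 142931128, minus strand), the rate-limiting enzyme of catecholamine synthesis, differed between the group means by less than its spread within groups. Its level was 13.0, 9.09 and 8.14 CPM in 15Q, 7.83, 10.9 and 11.001 CPM in 84Q, and 6.39, 8.58 and 15.4 CPM in 84Q+IGF-1. The highest and the lowest library of all both belonged to the 84Q+IGF-1 group, so the groups overlapped throughout. The 15Q mean was 10.1 ± 2.58 CPM, that of 84Q 9.91 ± 1.80 CPM and that of 84Q+IGF-1 10.1 ± 4.71 CPM (SD, n = 3). The fold change was 0.986 in 84Q against 15Q, with a 95% confidence interval from 0.644 to 1.51, and 1.03 in 84Q+IGF-1 against 84Q, from 0.672 to 1.59 (adjusted p of 0.979 and 0.994 in edgeR). Both intervals reach past a 1.5-fold change, so a change of that size is not excluded.

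Between mice, Th varied by more than counting error. The coefficient of variation was 46.5% in 84Q+IGF-1, 25.6% in 15Q and 18.2% in 84Q, where counting error alone gives between 5.02% and 6.70%. This is not particular to Th, since Maob also exceeded counting error in each group (7.24% to 13.0%, beside 3.05% to 3.96% from counting). The genes whose log2 CPM ran most nearly parallel to Th over the 9 libraries were Pde1b (a calcium- and calmodulin-dependent phosphodiesterase), with a Pearson correlation of 0.969, B3galt2 (0.964) and Lpin2 (0.948), out of 15935 genes compared. These correlations describe the same 9 libraries, whose depths differ, and were picked as the highest of many.

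Ddc (ENSMUSG00000020182.16, chromosome 11, 11814101 to 11898144, minus strand) stood lower in every 84Q+IGF-1 library than in any of 15Q, a difference that was not called (unadjusted p = 0.0754 in edgeR). It was measured at 4.98, 5.98 and 6.04 CPM in 15Q, at 6.07, 6.33 and 4.79 CPM in 84Q, and at 4.50, 4.71 and 4.90 CPM in 84Q+IGF-1. All 3 libraries of 84Q+IGF-1 lay below those of 15Q, the nearest pair being 4.90 and 4.98 CPM, while 84Q overlapped both other groups. The fold change in 84Q+IGF-1 against 15Q was 0.828 (95% confidence interval 0.670 to 1.02, adjusted p = 0.336 in edgeR). Against 84Q it was 0.818 (0.658 to 1.02, adjusted p = 0.969), and between 84Q and 15Q it was 1.01 (0.819 to 1.25). The highest correlations with Ddc were those of Zdhhc15 (0.970), Cpt2 (0.953) and Gm15721 (0.952).

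Dbh (ENSMUSG00000000889.8, chromosome 2, 27165233 to 27183200, plus strand), which marks neurons that make noradrenaline, had the largest fold change of the 7 genes in both comparisons with 84Q, and 1 library of that group held most of its counts there. The counts were 3, 14 and 11 in 15Q, 69, 18 and 2 in 84Q, and 0, 1 and 18 in 84Q+IGF-1. Library 84Q 1 held 50.7% of the 136 counts of all libraries, and 4 libraries, spread over all groups, were at or under the floor of 3 counts. In CPM the 84Q libraries stood at 2.38, 0.791 and 0.114, those of 15Q at 0.112, 0.348 and 0.188 and those of 84Q+IGF-1 at 0, 0.0377 and 0.617, so that every pair of groups overlapped.

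The fitted fold change of Dbh was 5.20 in 84Q against 15Q (95% confidence interval 1.32 to 20.4, adjusted p = 0.183 in edgeR) and 0.203 in 84Q+IGF-1 against 84Q (0.0473 to 0.872, adjusted p = 0.969). In a fit to only the 6 libraries of 84Q and 15Q, Dbh missed the filter on low counts. Its level was highest in 84Q 1, 84Q 2 and 84Q+IGF-1 3, and that fit leaves out the last of these. Without library 84Q 1, the log2 fold change went from 2.38 to 1.10 in 84Q against 15Q (adjusted p = 0.576) and from -2.30 to -1.02 in 84Q+IGF-1 against 84Q (adjusted p = 0.904). An edgeR fit without the filter on low counts called both differences, with an adjusted p of 1.58e-06 and 9.03e-05 and a standard error of 0.42 in place of 0.90 for the first, whereas DESeq2 gave an adjusted p of 0.469 for the first. Over all alternatives the adjusted p of Dbh in 84Q against 15Q ranged from 1.58e-06 to 0.729. In 84Q+IGF-1 against 15Q the fold change was 1.06 (0.194 to 5.74). Without library 84Q+IGF-1 3, which left 1 count of Dbh in that group, the log2 fold change was -3.23 against 15Q and -5.60 against 84Q, values that depend on the prior count of the fit.

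Slc6a2, Prph and Phox2a were also high in the library with the most Dbh, while the summed hindbrain markers, Prph included, were highest in 84Q 2 (4.18 CPM) and stood at 2.04 CPM in 84Q 1. Slc6a2, the noradrenaline transporter, had 54 of its 133 counts in 84Q 1 and 27 in 84Q+IGF-1 3, and 0 in 84Q 3. Prph, a filament protein of peripheral and brain stem neurons, had 33 of 78 counts in 84Q 1, 13 in 84Q+IGF-1 3 and 0 in 84Q 3. Phox2a, a transcription factor of noradrenergic neurons, had 9 counts in all, 5 of them in 84Q 1. Slc6a2, Phox2a and Prph thus had their highest counts in library 84Q 1, as Dbh did, and their part in the differences of Dbh was not tested.

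Th did not share the peak in 84Q 1. Library 84Q 1, with the most Dbh, had the second lowest level of Th (7.83 CPM), and 15Q 1, with the second highest level of Th (13.0 CPM), had 3 counts of Dbh. Other libraries ran alike, as 84Q+IGF-1 1 was lowest in both genes (6.39 CPM of Th and 0 of Dbh). The library with the most Th, 84Q+IGF-1 3 (15.4 CPM), had the third highest level of Dbh (0.617 CPM). Over the 9 libraries the Pearson correlation of the 2 genes in log2 CPM was 0.244. The TPM ratio of Th to Dbh ran from 3.75 in 84Q 1 to 260 in 84Q+IGF-1 2, and it has no value in 84Q+IGF-1 1, where Dbh was at 0. Among genes with at least 1 CPM on average, Tm4sf1 (0.959), Fbxo32 (0.924) and Lpar1 (0.914) had the highest correlations with Dbh over the 9 libraries.

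**Figure D3:**
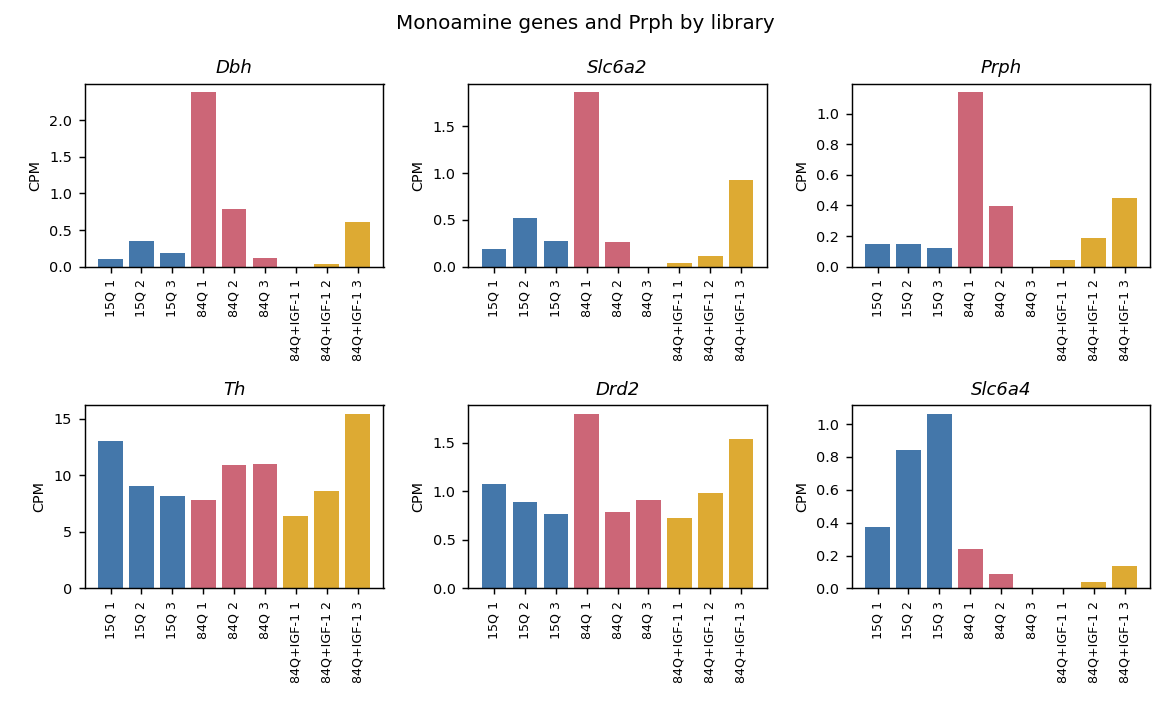
Level in CPM of Dbh, the noradrenaline transporter Slc6a2, Prph, Th, Drd2 and the serotonin transporter Slc6a4 in each library (bars from 0, each panel on its own axis, colored by group). Dbh, Slc6a2, Prph and Drd2 are highest in library 84Q 1, Th is highest in 84Q+IGF-1 3, and Slc6a4 is higher in the 3 libraries of 15Q than in the other 6.

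Slc18a2 (ENSMUSG00000025094.8, chromosome 19, 59260896 to 59296012, plus strand), the vesicular transporter that loads monoamines into synaptic vesicles, was the one gene of the 9 for which the 84Q libraries stood apart from both other groups. Its level was 3.87, 4.12 and 3.83 CPM in 15Q, 5.14, 4.92 and 4.67 CPM in 84Q, and 4.42, 3.46 and 3.84 CPM in 84Q+IGF-1. Every 84Q library lay above every library of the other 2 groups, and the gap to the next one, 84Q+IGF-1 1, was that between 4.67 and 4.42 CPM. The fold change was 1.25 in 84Q against 15Q (95% confidence interval 1.02 to 1.53, adjusted p = 0.216 in edgeR). It was 0.793 in 84Q+IGF-1 against 84Q (0.644 to 0.975, adjusted p = 0.969) and 0.990 in 84Q+IGF-1 against 15Q (0.808 to 1.21). Both differences failed the adjustment and were under the fold change of a call.

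In 16 alternative fits the log2 fold change of Slc18a2 in 84Q against 15Q stayed between 0.26 and 0.36, with an adjusted p between 0.182 and 0.778. Counts were between 82 and 224 per library, and counting error alone gives a coefficient of variation of 7.79% in 15Q and 9.35% in 84Q, above the 4.03% and 4.75% observed there, while in 84Q+IGF-1 the observed 12.3% was above the 9.89% from counting. The 1 gene with exons across those of Slc18a2 on the other strand, Gm29261, shares 111 bases with it and had 1 count in all libraries. Mrps28 (0.943), Gm10643 (0.923) and Ifngr2 (0.913) ran most nearly parallel to it.

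Slc6a3 (ENSMUSG00000021609.6, chromosome 13, 73536747 to 73578672, plus strand), the dopamine transporter and the marker of midbrain dopamine neurons, was near the limit of detection. It had 3, 4 and 1 counts in 15Q, 8, 1 and 0 in 84Q, and 0, 0 and 1 in 84Q+IGF-1. In 7 of the 9 libraries this was at or under the floor of 3 counts, and no fold change is given. Library 84Q 1, where Dbh was highest, also held 8 of the 18 counts of Slc6a3. Pitx3, a transcription factor of midbrain dopamine neurons, had at most 2 counts in any library.

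Maoa (ENSMUSG00000025037.6, chromosome X, 16619698 to 16687818, plus strand) prefers serotonin and noradrenaline as substrates and was the most abundant of the 9 genes. It stood at 54.0, 54.1 and 55.2 CPM in 15Q, at 56.5, 44.4 and 54.2 CPM in 84Q, and at 52.3, 48.9 and 57.2 CPM in 84Q+IGF-1. The lowest value was that of 84Q 2, the library with the most choroid plexus RNA, and the other 8 libraries lay within 48.9 and 57.2 CPM. The fold changes were 0.950 in 84Q against 15Q (95% confidence interval 0.833 to 1.08), 0.971 in 84Q+IGF-1 against 15Q (0.852 to 1.11) and 1.02 in 84Q+IGF-1 against 84Q (0.895 to 1.17). Each of these intervals lies inside 1.5-fold in either direction.

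Maob (ENSMUSG00000040147.14, chromosome X, 16709282 to 16817366, minus strand), the form found in astrocytes and in serotonin neurons, also differed between the group means by less than its spread. It stood at 26.6, 23.5 and 26.8 CPM in 15Q, at 28.2, 29.7 and 23.7 CPM in 84Q, and at 23.7, 24.5 and 29.9 CPM in 84Q+IGF-1. The groups overlapped, and the fold changes were 1.06 (0.899 to 1.26), 1.02 (0.860 to 1.20) and 0.956 (0.807 to 1.13) in the same order of comparisons, all with intervals inside 1.5-fold. The TPM ratio of Maoa to Maob was lowest in 84Q 2, at 0.999, and lay between 1.28 and 1.54 in the other 8 libraries. Both genes are on the X chromosome, and by Xist and Y-linked genes the libraries were of both sexes. Xist was high in 4 (15Q 2, 15Q 3, 84Q 1 and 84Q+IGF-1 2). Y-linked RNA was found in 5 (15Q 1, 84Q 2, 84Q 3, 84Q+IGF-1 1 and 84Q+IGF-1 3), so the sexes were not shared equally among the groups. Maoa ranged from 48.9 to 56.5 CPM in the 4 and from 44.4 to 57.2 CPM in the 5, and Maob from 23.5 to 28.2 and from 23.7 to 29.9 CPM. In the same split Ddc had medians of 6.01 CPM (4.71 to 6.07) and 4.90 CPM (4.50 to 6.33). Th ranged from 7.83 to 9.09 and from 6.39 to 15.4 CPM, and Slc18a2 from 3.46 to 5.14 and from 3.84 to 4.92 CPM. With Xist as a covariate, the log2 fold change of Ddc in 84Q+IGF-1 against 15Q went from -0.27 to -0.22.

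For Maoa the highest correlations over the 9 libraries were those of Cbx3-ps7, Gm17259 and Gm6392 (all 0.944), of which Cbx3-ps7 is named as a pseudogene. For Maob they were those of Col4a2 (0.897), Stk39 (0.896) and Sec61a2 (0.895).

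Drd2 (ENSMUSG00000032259.8, chromosome 9, 49340627 to 49408177, plus strand), the inhibitory dopamine receptor, was low but counted in every library. Its counts were 29, 36 and 45 in 15Q, 52, 18 and 16 in 84Q, and 17, 26 and 45 in 84Q+IGF-1. In CPM these are 1.08, 0.894 and 0.770, then 1.79, 0.791 and 0.912, then 0.729, 0.979 and 1.54, and the groups overlapped, with 84Q 1 again the highest library. The fold change was 1.33 in 84Q against 15Q (95% confidence interval 0.777 to 2.28, adjusted p = 0.566 in edgeR), and its log2 value went from 0.41 to -0.083 without library 84Q 1. In 84Q+IGF-1 against 84Q the fold change was 0.916 (0.531 to 1.58) and against 15Q it was 1.22 (0.714 to 2.08). Spin1 (0.967), Ptp4a2 (0.927) and Poli (0.918) were the genes most parallel to Drd2.

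Drd1 (ENSMUSG00000021478.6, chromosome 13, 54051183 to 54055705, minus strand), the stimulatory receptor, had 5, 16 and 21 counts in 15Q, 8, 8 and 5 in 84Q, and 5, 1 and 9 in 84Q+IGF-1. Scaled to CPM, the groups overlapped, at 0.186 to 0.397 in 15Q, 0.276 to 0.352 in 84Q and 0.0377 to 0.308 in 84Q+IGF-1. It was not tested in the main edgeR fit because of its low counts. In the fit without the filter, its log2 fold change was -0.10 in 84Q against 15Q (95% confidence interval -1.14 to 0.94), -0.77 in 84Q+IGF-1 against 15Q (-1.87 to 0.32) and -0.67 in 84Q+IGF-1 against 84Q (-1.86 to 0.52). These intervals may be too narrow. In 84Q against 15Q that fit called 1025 genes, where the main fit called 414. Its standard errors there were smaller for Th (0.13 in place of 0.28) and Drd2 (0.31 in place of 0.35), but larger for Ddc (0.17 in place of 0.14) and Slc18a2 (0.18 in place of 0.13).

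**Figure D4:**
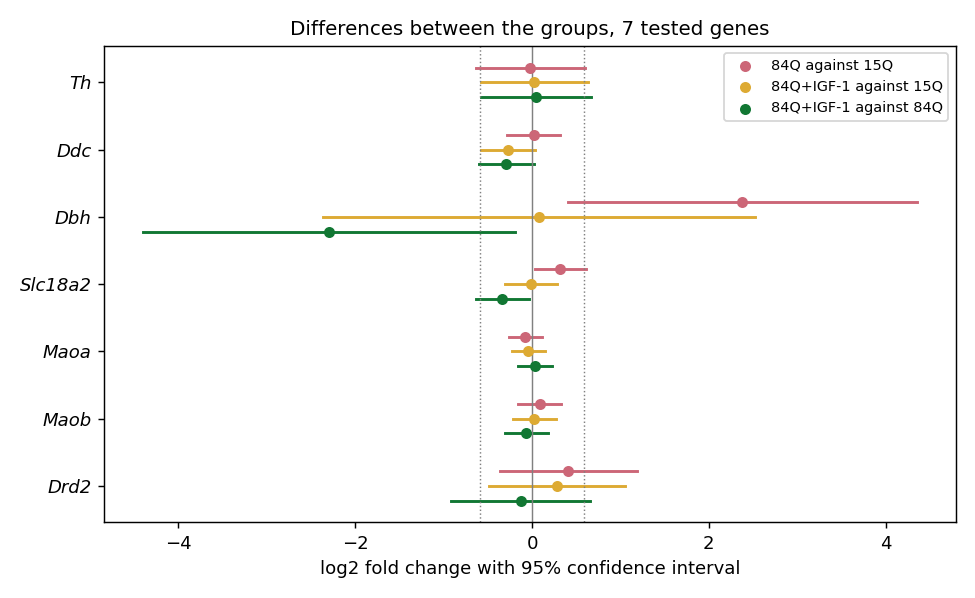
Log2 fold change (points) and its 95% confidence interval (lines) from edgeR for the 7 tested genes in the 3 comparisons (colors), with dotted lines at a 1.5-fold change. The intervals of Maoa and Maob stay inside the dotted lines, those of Dbh are the widest, and those of Slc18a2 leave 0 out in both comparisons with 84Q.

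The other genes of the pathway were read from 9 lists of 68 genes in all, each with a count in at least 1 library and 50 of them tested. Of the 50, edgeR called 0 in each of the 3 comparisons, and an unadjusted p under 0.05 was found for 5 in 84Q against 15Q, 6 in 84Q+IGF-1 against 15Q and 2 in 84Q+IGF-1 against 84Q, beside the edgeR shares of all genes given above. DESeq2, on all 68, of which 6 had no adjusted p in each comparison with 15Q, called 1, 1 and 0 (Slc6a4 in both cases) and gave an unadjusted p under 0.05 to 8, 5 and 1, to be read against its own shares of all genes. The median log2 fold change of the 50 was 0.070, -0.026 and -0.055 in the same order.

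Slc6a4, the serotonin transporter, was named after its values were seen. It had 10, 34 and 62 counts in 15Q, 7, 2 and 0 in 84Q, and 0, 1 and 4 in 84Q+IGF-1, and each 15Q library lay above the other 6, at 0.372 to 1.06 CPM against 0 to 0.241 CPM. It missed the filter of the edgeR fit, and DESeq2 gave a log2 fold change of -2.66 in 84Q against 15Q (adjusted p = 0.04995) and of -3.63 in 84Q+IGF-1 against 15Q (adjusted p = 0.00928). When 1 library was left out, edgeR tested Slc6a4 in 7 of 9 fits, all but those without 15Q 2 or 15Q 3. Outside 15Q it had at most 7 counts in a library, so it passed the filter through the group where it is high. Calls kept or lost in these fits are therefore no separate support for the difference. In 84Q against 15Q the log2 fold change was then -3.89 without 84Q 1, and the call was lost without 84Q 2 (-2.40, adjusted p = 0.150) or 84Q 3 (-2.17, adjusted p = 0.205). In 84Q+IGF-1 against 15Q it was -5.04 without 84Q+IGF-1 3, and the call was lost without 84Q+IGF-1 1 (-3.09, adjusted p = 0.117) or 84Q+IGF-1 2 (-3.32, adjusted p = 0.105). Without the 3 libraries rich in choroid plexus RNA, which leaves 15Q with 1 library, the log2 fold changes were -2.51 and -3.65 and edgeR called neither (adjusted p of 0.525 and 0.255). Summed markers of intestine, where this transporter is also expressed, were high in the 3 libraries of 15Q, as given above, and their part in this difference was not tested. Of the other synthesis enzymes, 3 of 4 were tested and 0 called, and Hdc, which makes histamine, was the most abundant at 4.004 TPM, with a log2 fold change of -0.11 in 84Q against 15Q. Tph2, the enzyme of serotonin synthesis in neurons, had between 5 and 16 counts in every library, from 0.223 to 0.397 CPM in 15Q, 0.310 to 0.571 in 84Q and 0.214 to 0.565 in 84Q+IGF-1.

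Among the enzymes that make the cofactor tetrahydrobiopterin, which Th and the tryptophan hydroxylases need, 5 of 5 were tested and 0 called. Spr, the last enzyme of its synthesis, came nearest, with 15.2 to 16.7 CPM in 15Q and 18.2 to 22.1 CPM in 84Q, a log2 fold change of 0.32 and an adjusted p of 0.0939, and thus under the fold change of a call. Qdpr, which regenerates the cofactor, was the most abundant of them at 139 TPM. Its log2 fold change was -0.046 in 84Q against 15Q. In 84Q+IGF-1 against 15Q, edgeR gave an unadjusted p under 0.05 to 3 of the 5 (Spr, Qdpr and Pcbd1), beside 17.7% of all tested genes. Of these, 2 were lower and 1 was higher. The numbers were 1 of 5 (Spr) in 84Q against 15Q, beside 19.4%, and 0 of 5 in 84Q+IGF-1 against 84Q, beside 4.68%.

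Of the other breakdown enzymes, 3 of 3 were tested and 0 called. Aldh1a1 (164 TPM) and Aldh2 (93.7 TPM), aldehyde dehydrogenases, stood above Maoa in level. Aldh2 had a log2 fold change of 0.13 in 84Q against 15Q (adjusted p = 0.241 in edgeR). Of the other transporters, 3 of 7 were tested and 0 called, and Slc29a4, a low-affinity monoamine transporter of the plasma membrane, was the most abundant at 73.6 TPM, with log2 fold changes of 0.11, -0.0050 and -0.11 in the 3 comparisons.

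Of the other dopamine receptors 1 of 3 was tested, Drd4 at 1.28 TPM, and it was not called. All 9 adrenergic receptors were tested and none was called, the highest being Adra2a at 11.3 TPM. Among the serotonin receptors, 8 of 14 were tested and 0 called, and Htr1b led at 16.3 TPM. Htr2c, which choroid plexus expresses strongly, had 470, 170 and 971 counts in 15Q, 219, 584 and 35 in 84Q and 22, 87 and 177 in 84Q+IGF-1, and its log2 fold changes were -1.86 in 84Q+IGF-1 against 15Q (adjusted p = 0.246) and -1.76 in 84Q+IGF-1 against 84Q (adjusted p = 0.969). Its 3 highest libraries were the 3 with the highest sums of choroid plexus markers, and the part of that tissue was not tested.

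The genes of dopamine receptor signaling known from the striatum were all 11 tested and 0 were called, with Penk (174 TPM), an opioid precursor, and Ppp1r1b (134 TPM), which encodes DARPP-32, the most abundant. Of the transcription factors of monoamine neurons, 7 of 12 were tested and 0 called. En2 (200 TPM) and Nr4a2 (20.0 TPM), which other cells of the cerebellum also express, led them, and Fev, the factor of serotonin neurons, had a log2 fold change of -1.84 in 84Q against 15Q (adjusted p = 0.142). The edgeR fit without the filter on low counts called Nr4a2 in 84Q against 15Q (0.75, adjusted p = 2.03e-10). It also called Nr4a2 in 84Q+IGF-1 against 84Q (-0.79, adjusted p = 8.58e-11) and Fev in 84Q against 15Q (adjusted p = 0.00620). DESeq2 called neither gene.

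**Figure D5:**
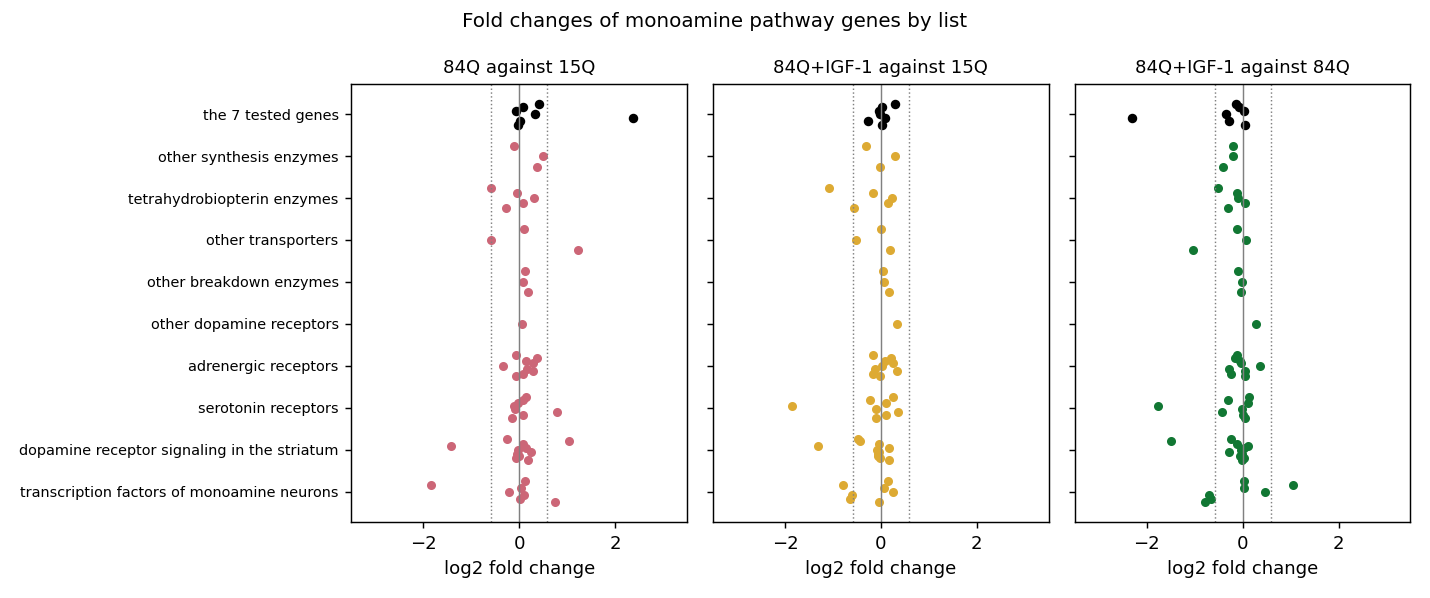
Log2 fold change of the 7 tested genes (black, top row) and of the 50 other tested pathway genes by list (colored points, 1 per gene) in the 3 comparisons, with dotted lines at a 1.5-fold change. Most points lie between the dotted lines, and the farthest from 0 are Dbh in both comparisons with 84Q, Htr2c in both with 84Q+IGF-1 and Fev in 84Q against 15Q.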

How the data were processed

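RNA of cerebellum from 9 mice (3 each of 15Q, 84Q and 84Q+IGF-1) was sequenced as paired-end 150 bp reads from strand-specific libraries. Per the labels and the submitters' processing notes, the authors used bcl2fastq 2.20, Trimmomatic 0.36, HISAT2 2.2.0 with GRCm38.p6 (mm10) and featureCounts, whose version, annotation and strand setting are not given in the sources used here. The values used are the deposited read counts per gene, without normalization, and all 9 sample columns were used.

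Of the 37816 genes, 37681 had a position and length in GENCODE vM21, from which TPM was computed. The groups were compared by the two-sided quasi-likelihood test of edgeR 4.0.16 (R 4.3.3) after filterByExpr and TMM scaling, with the 9 libraries in a single fit and p-values adjusted by Benjamini-Hochberg over 19353 genes, and DESeq2 1.42.0 was an alternative. Standard errors and 95% intervals were derived from the F statistic. Correlations used log2 CPM with a prior count of 2 and genes with a mean of at least 1 CPM. Floors of 3 counts cover counting error only. The steps were tested on simulated data, with changes set only in well-counted genes and with a single small spread. That test does not cover low counts such as those of Dbh, Drd1, Drd2 and Slc6a3.

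The genes and lists were chosen with earlier results of these data known. Named were the 9 genes, of each other list the genes called and at most the 2 of highest mean TPM, and for each tested gene the 3 most correlated. Slc6a4, Slc6a2, Phox2a, Pitx3, Fev and Htr2c were named in addition, after their values were seen. Replicate numbers were not treated as pairs. Alternatives were DESeq2, its size factors, no filter, other thresholds, 6 libraries, a replicate block, Xist as a covariate and leaving out each library. The fit without the 3 libraries rich in choroid plexus RNA was chosen after seeing the data. Some genes of the lists are not reported here by name.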

Additional observations from a re-analysis of the deposited data

How the results depend on the processing

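Under every alternative run, 0 of the 9 genes were called in each comparison, except without the filter on low counts, where 1 (Dbh) was called in 84Q against 15Q and 1 (Dbh) in 84Q+IGF-1 against 84Q. The alternatives tested between 6 and 9 of the 9 genes. For pathway genes in 84Q against 15Q the count went from 0 to 1 without the fold threshold (Spr), 1 with DESeq2 (Slc6a4), 7 without the filter and 2 with the 6 libraries of the compared groups (1 of them Slc6a4), and from 0 to 2 when 1 library was left out. In 84Q+IGF-1 against 15Q it was 1 with DESeq2, 4 without the filter, 1 with 6 libraries and 0 to 2 with 1 library left out, and in 84Q+IGF-1 against 84Q it was 2 without the filter. Over all genes, 414 calls in 84Q against 15Q became 243 at an adjusted p under 0.05, 928 without the fold threshold, 1025 without the filter, 94 without the 3 libraries rich in choroid plexus RNA and 184 to 551 with 1 library left out (184 without 15Q 2 and 185 without 15Q 3). The 435 calls in 84Q+IGF-1 against 15Q became 281, 711, 1284, 189 and 226 to 629 (244 without 15Q 2 and 226 without 15Q 3), and the 0 calls in 84Q+IGF-1 against 84Q became 6 with DESeq2, 168 without the filter, 9 without the choroid plexus libraries and 0 to 9 with 1 library left out (9 without 84Q 2). With the replicate number as a block, the calls over all genes were 242 and 271 in the comparisons with 15Q, no member or pathway gene changed its call, and the log2 fold change of Th in 84Q+IGF-1 against 15Q turned to -0.041. Same-numbered libraries of different groups did not deviate together (correlations from -0.309 to 0.0788), so the numbers were not read as pairs. With Xist as a covariate that value of Th was -0.15. Dbh was not tested in the fits to the 6 libraries of either comparison with 15Q.

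The sign was not fixed for 14 of the 21 log2 fold changes, all of them uncalled. With 1 library left out, in 84Q against 15Q these ranged from -0.15 to 0.20 for Th, -0.058 to 0.13 for Ddc, -0.14 to 0.030 for Maoa and -0.083 to 0.64 for Drd2. In 84Q+IGF-1 against 15Q they ranged from -0.41 to 0.27 for Th, -3.23 to 0.59 for Dbh, -0.11 to 0.069 for Slc18a2, -0.10 to 0.013 for Maoa, -0.086 to 0.089 for Maob and -0.065 to 0.49 for Drd2. In 84Q+IGF-1 against 84Q they ranged from -0.39 to 0.29 for Th, -0.066 to 0.10 for Maoa, -0.18 to 0.0039 for Maob and -0.48 to 0.37 for Drd2. Without the choroid plexus libraries a fit that leaves 15Q with 1 library, assumed to vary like the others, the values were 0.044 for Th, -0.12 for Ddc and 0.041 for Maoa in 84Q against 15Q, -0.56 for Dbh in 84Q+IGF-1 against 15Q, and -0.066 for Maoa and 0.0038 for Maob in 84Q+IGF-1 against 84Q. The causes were not tested. Drd1 and Slc6a3 had at most 21 and 8 counts in a library and were not tested for that reason.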
